A study of Mus musculus with 8 samples.

Results

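The let-7 hairpins are 8 microRNA (miRNA) genes or gene groups of the mouse, let-7a to let-7g and let-7i. Their sequences were those whose deposited annotation began with mmu-let-7, with the copies that carry a trailing 1 or 2 merged (let-7a, let-7c and let-7f). The rule gave 671 distinct sequences from 11 hairpins. They made up 3.82% of the 17558 sequences annotated to a miRNA hairpin, which fell under 355 names and 385 hairpins, and the whole list held 6246223 distinct sequences. The RNA came from mouse testes, was selected for 19 to 33 nt, and received linkers before amplification. Per the labels there were 8 libraries in 8 groups of 1. Tdrd6 mutants were heterozygous or homozygous, at 18 days, 25 days and 6 weeks after birth. Tdrd1 mutants were heterozygous or homozygous, at 18.5 days after conception. The products of both genes are Tudor-domain proteins of the germ line that bind Piwi proteins. The labels used here named no wild-type testes, strain, number of animals or replicate.

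No sequence in the deposited list was tied to a library, so homozygous and heterozygous testes, or ages, could not be compared, and whether a library carries its mutation was not checked. The list also held no read number. A count below is a number of different sequences, whether read rarely or often, and none measures the abundance of a miRNA. Sequencing depth was unknown. Intervals are exact (Clopper-Pearson), at 95%, and cover counting error only. Overlapping sequences of 1 hairpin are not independent, and nothing was tested between groups.

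A miRNA is cut from a folded hairpin in steps. Drosha releases the hairpin's upper stem in the nucleus, Dicer then removes the loop, and 1 of the 2 arms (5p or 3p) is loaded into an Argonaute protein, where bases 2 to 8, the seed, pair with target messenger RNAs. The let-7 family promotes differentiation in many animal tissues, and its 5p arm is the usual guide. LIN28, which binds the loop of let-7 precursors and blocks their maturation, marks undifferentiated spermatogonia in the testis.

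The 8 distinct 5p mature sequences from RefSeq (mouse assembly GRCm38.p6) are shown first, because the variants below are measured from their ends. Capitals mark the seed.
let-7a-5p: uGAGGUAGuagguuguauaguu
let-7b-5p: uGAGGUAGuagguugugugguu
let-7c-5p: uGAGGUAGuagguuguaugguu
let-7d-5p: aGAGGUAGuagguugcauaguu
let-7e-5p: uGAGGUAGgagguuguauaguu
let-7f-5p: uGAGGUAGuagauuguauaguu
let-7g-5p: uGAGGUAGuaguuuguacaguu
let-7i-5p: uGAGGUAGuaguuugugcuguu
All 8 share the seed GAGGUAG and a length of 22 nt. Counted from 1 at the 5′ end, and with the base of let-7a first, let-7c differs from let-7a by A19G, let-7e by U9G and let-7f by G12A. let-7b differs by A17G and A19G, let-7d by U1A and U16C, and let-7g by G12U and U18C. let-7i differs most, by G12U, A17G, U18C and A19U. Of the 28 pairs of members, 4 differ at 1 base and 8 at 2 bases. All 8 were in the deposited list at their full length.

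The 3p arms vary more, and they are shown because they separate copies that the 5p arm does not. There are 10 distinct 3p mature sequences with 8 seeds.
let-7a-1-3p and let-7c-2-3p: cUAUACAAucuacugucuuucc
let-7a-2-3p: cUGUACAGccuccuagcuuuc
let-7b-3p: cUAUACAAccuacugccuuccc
let-7c-1-3p: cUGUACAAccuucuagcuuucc
let-7d-3p: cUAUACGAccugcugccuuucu
let-7e-3p: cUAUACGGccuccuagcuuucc
let-7f-1-3p: cUAUACAAucuauugccuuccc
let-7f-2-3p: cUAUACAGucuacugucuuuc
let-7g-3p: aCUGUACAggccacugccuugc
let-7i-3p: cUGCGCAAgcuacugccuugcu
let-7a-1 and let-7c-2 have the same 3p sequence, although their 5p arms differ. Of the 10, 9 were in the list at full length, and let-7f-1-3p was not found in it.

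The hairpins lie at 8 places or clusters of the genome, given here for GRCm38.p6, with host genes from GENCODE release M21. let-7a-1 (chr13:48538179-48538272), let-7f-1 (chr13:48537829-48537917) and let-7d (chr13:48536012-48536114) lie on the minus strand within exons of the long noncoding RNA 6720427I07Rik. let-7c-2 (chr15:85706603-85706697) and let-7b (chr15:85707319-85707403) lie on the plus strand within exons of the noncoding Lncppara. let-7c-1 (chr16:77599657-77599750, plus) lies in an intron of Mir99ahg, and let-7a-2 (chr9:41536716-41536811, plus) in introns of the noncoding 3110039I08Rik and Gm49317. Introns of protein-coding genes hold let-7e (Spaca6, chr17:17830352-17830444, plus), let-7f-2 (Huwe1, chrX:151912346-151912428, plus) and let-7g (Wdr82, chr9:106178840-106178927, plus). let-7i (chr10:122985640-122985724, minus) lies in an exon of D630033A02Rik, a transcribed processed pseudogene. The deposited list gave no coordinates, so these are places of the hairpins and not of single sequences.

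let-7a had 123 distinct sequences and let-7c had 111, and these 2 members held the most. let-7d and let-7e had 81 each, let-7f 80, let-7b 73, let-7g 64 and let-7i 58. Among the 355 miRNA names, let-7a stood 9th and let-7c 12th, while let-7g stood 93rd and let-7i 111th. All 8 members were above the median of 40 sequences per name. The 3 members with 2 hairpins were let-7a, let-7c and let-7f. let-7c-1 had 44 sequences that lie on no other let-7 hairpin (22 on the 5p arm, 12 on the 3p arm and 10 in the loop), and let-7c-2 had 22 (17, 0 and 5). The let-7c-2 3p sequence is also that of let-7a-1, so neither of these hairpins has the mature 3p sequence to itself. let-7a-1 had 30 (16 on the 5p arm, 3 on the 3p arm and 11 in the loop) and let-7a-2 had 18 (8, 8 and 2). let-7f-1 had 18 (11, 5 and 2) and let-7f-2 had 26 (15, 5 and 6).

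Every let-7 sequence but 1 was placed on the hairpin for which it was named. Of the 671, 603 lay within the hairpin on its sense strand without a mismatch (89.9%, interval 87.3 to 92). A further 41 ran past an end of the hairpin as RefSeq gives it (6.11%), and 26 matched the opposite strand (3.87%, interval 2.55 to 5.63). For 1 let-7g sequence of 17 nt both ends of the hairpin were equally possible.

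The 5p arm held 430 of the 644 sense sequences (66.8%, interval 63 to 70.4), the 3p arm 117 (18.2%) and the terminal loop 57 (8.85%, interval 6.77 to 11.3). A sequence was given to the part that holds most of its bases. The bases before the 5p arm held 34 sequences (5.28%) and those after the 3p arm 6 (0.932%). The 5p arm was the largest class in each of the 8 members. Its share ran from 65 of 115 in let-7a to 43 of 57 in let-7i. The 3p arm supplied 29 of let-7a's 115 sense sequences, of which 18 lie equally on let-7c-2 and lower the 5p share of let-7a, 20 of 81 in both let-7d and let-7e, and 3 of 59 in let-7b. Other miRNA hairpins with both arms known (237 hairpins, 9817 sense sequences) had 51.9% on the 5p arm, 42.6% on the 3p arm and 0.845% in the loop (interval 0.674 to 1.05). Those hairpins differ in which arm is their usual guide.

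**Figure D1:**
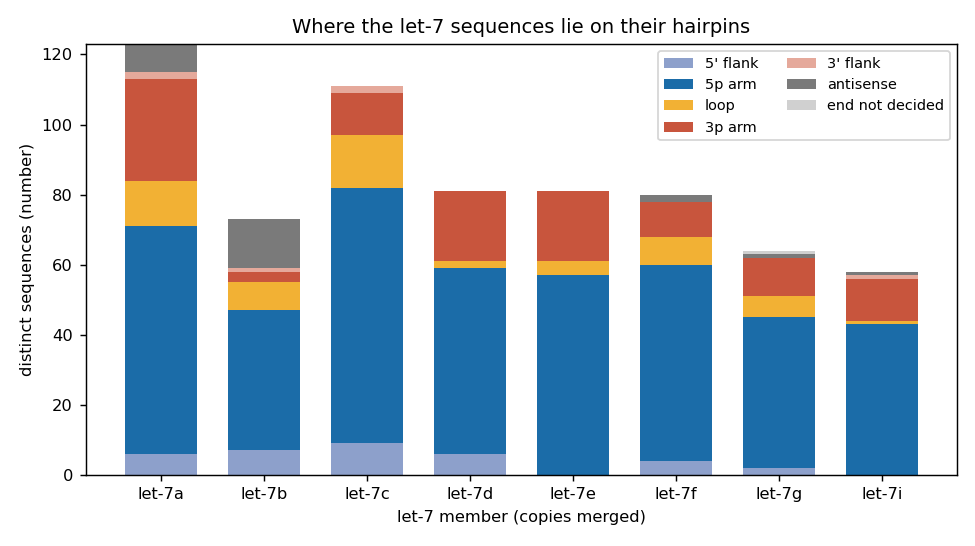
Stacked bars give the number of distinct sequences (vertical axis, from 0) of each let-7 member (horizontal axis), coloured by the part of the hairpin that holds most of their bases. The 5p arm is the tallest part of every bar, let-7b has the tallest antisense part (14), and let-7d and let-7e have 20 sequences each on the 3p arm.

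**Figure D2:**
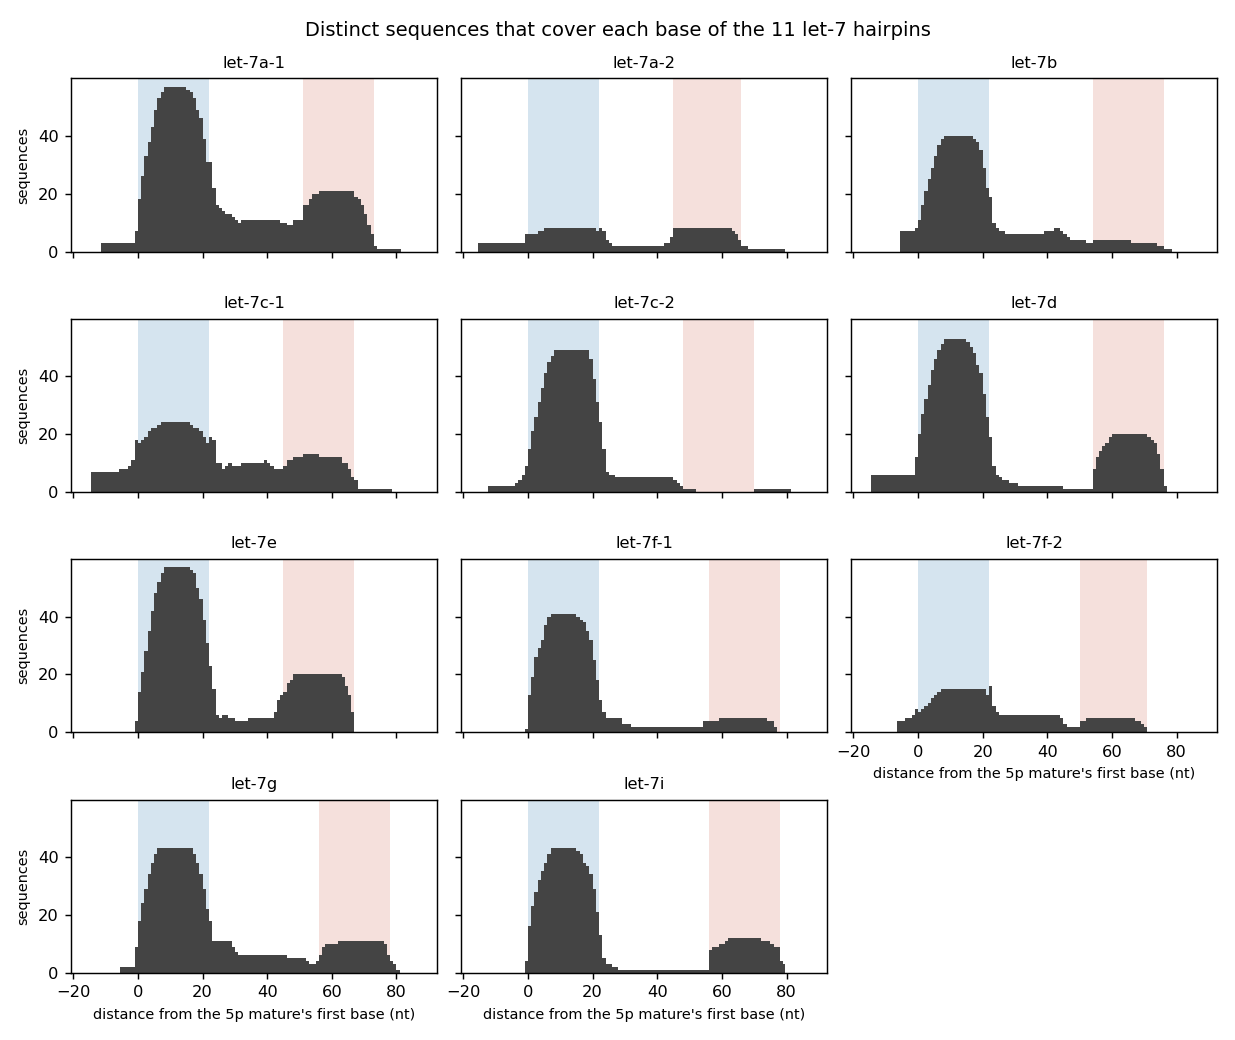
Each panel is 1 of the 11 hairpins, and the dark area gives the number of distinct sense sequences that cover each base, against the distance in nt from the first base of the 5p mature miRNA. Blue and red bands mark the 5p and the 3p mature miRNA, and a sequence shared by several hairpins is drawn only on the one it was named for, which leaves the 3p arm of let-7c-2 nearly empty.

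The 5p arm began at many positions around its reference 5′ end. Of its 430 sequences, 101 began at the reference base (23.5%, interval 19.6 to 27.8), 54 began before it and 275 after it. The 5′ ends 1 base before the reference were 43 and those 1 base after it 54. Then followed 48 at 2 bases, 42 at 3, 39 at 4 and 38 at 5 bases after it. All 8 members had ends at every position from 1 base before to 6 bases after the reference. Sequences that began 6 or more bases in were 15 to 18 nt long without exception, while 39 of the 43 that began 1 base early were 19 nt or longer. Among 5p sequences of 19 to 33 nt, 78 of 241 began at the reference base (32.4%). Counted over all lengths, other hairpins had 31.1% of 5098 5p sequences at the reference start, against 23.5% of 430 in let-7. A start that is moved by 1 base moves the seed by 1 base.

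The sequences that carry a moved start are shown for the places nearest to the reference, with bases 2 to 8 in capitals, as the deposited list writes them. Each stands for at least 5 distinct sequences of its member with that 5′ end. Beginning 1 base early, they were:
let-7a: aTGAGGTAgtaggttgtatagt
let-7c: tTGAGGTAgtaggttgtatggt
let-7d: aAGAGGTAgtaggttgcatagt
let-7g: cTGAGGTAgtagtttgtacagt
The first base there comes from the hairpin. It is A in the let-7a and let-7d forms shown, T in that of let-7c and C in that of let-7g. let-7c had 11 such sequences, let-7a and let-7g 7 each and let-7d 6. The other members also had this start, with 4 sequences in let-7e and let-7i, 3 in let-7f and 1 in let-7b. In a member with 2 hairpins, an early start can count once for each, where their bases before the 5p arm differ. Of such members, let-7a had 7 of 65 5p sequences that began before the reference, and let-7f had 5 of 56. let-7c went further than the rest, with limits from naming. Its total lacks short 5p sequences on both let-7c hairpins that were named let-7a. Its early forms of 17 and 18 nt lie on 2 let-7 hairpins. Of its 73 5p sequences, 20 began before the reference (27.4%), against 1 of 40 in let-7b, which has 1 hairpin. Another 5 began 2 bases early, such as gTTGAGGTagtaggttgtatgg, and the earliest lay 6 bases ahead.

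Beginning 1 base late, the sequences were:
let-7a: gAGGTAGTaggttgtatagttt
let-7b: gAGGTAGTaggttgtgtggttt
let-7c: gAGGTAGTaggttgtatggttt
let-7d: gAGGTAGTaggttgcatagttt
let-7e: gAGGTAGGaggttgtatagttg
let-7f: gAGGTAGTagattgtatagttg
let-7g: gAGGTAGTagtttgtacagttt
let-7i: gAGGTAGTagtttgtgctgttg
All 8 members held 5 to 8 sequences with this start. Bases 2 to 8 then read AGGTAGT in 7 members and AGGTAGG in let-7e, so U9G enters that window in let-7e.

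The 3′ ends of the 5p arm took 18 positions and the 5′ ends 14. Of the 430 sequences, 80 ended at the reference base (18.6%, interval 15 to 22.6), 191 ended before it (44.4%) and 159 after it (37%). Ends 1 base past the reference numbered 78 and ends 1 base short of it 66, both close to the number at the reference itself. Ends 2 bases past numbered 46, and ends 3 bases past only 8. The earliest ended 7 bases short and the latest 10 bases beyond. Each extended base matched the hairpin, since only exact matches were counted. Every let-7 sequence was listed with at least 1 mapped position, and bases added without a template were not assessed.

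Among sequences that began exactly at the reference 5p base, let-7a had 17 forms of 15 lengths. These were every length from 15 to 26 nt and then 29, 30 and 31 nt. let-7d had 14 lengths from 15 to 31 nt, let-7f 13 from 15 to 32 nt and let-7i 12 from 15 to 28 nt. let-7c had 10 lengths from 19 to 29 nt, and no form under 19 nt named for it. The shortest such forms of let-7a lie on several hairpins, and a 15 nt form had a map number of 10. Forms that ran into the loop separated the copies, as the extension in capitals shows:
let-7a-1: tgaggtagtaggttgtatagttTT
let-7a-2: tgaggtagtaggttgtatagttTA
let-7c-1: tgaggtagtaggttgtatggttTA
let-7c-2: tgaggtagtaggttgtatggttTT
let-7f-1: tgaggtagtagattgtatagttGT
let-7f-2: tgaggtagtagattgtatagttTT
All 6 are 24 nt long and mapped to 1 position. Both copies of let-7a, let-7c and let-7f were therefore matched by a 24 nt form that lies on no other let-7 hairpin. These forms of 2 copies differ only within the extension in capitals, and bases added without a template were not assessed. The longest forms from the reference start reached 9 bases into the loop in let-7a, let-7d and let-7g and 10 bases in let-7f.

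**Figure D3:**
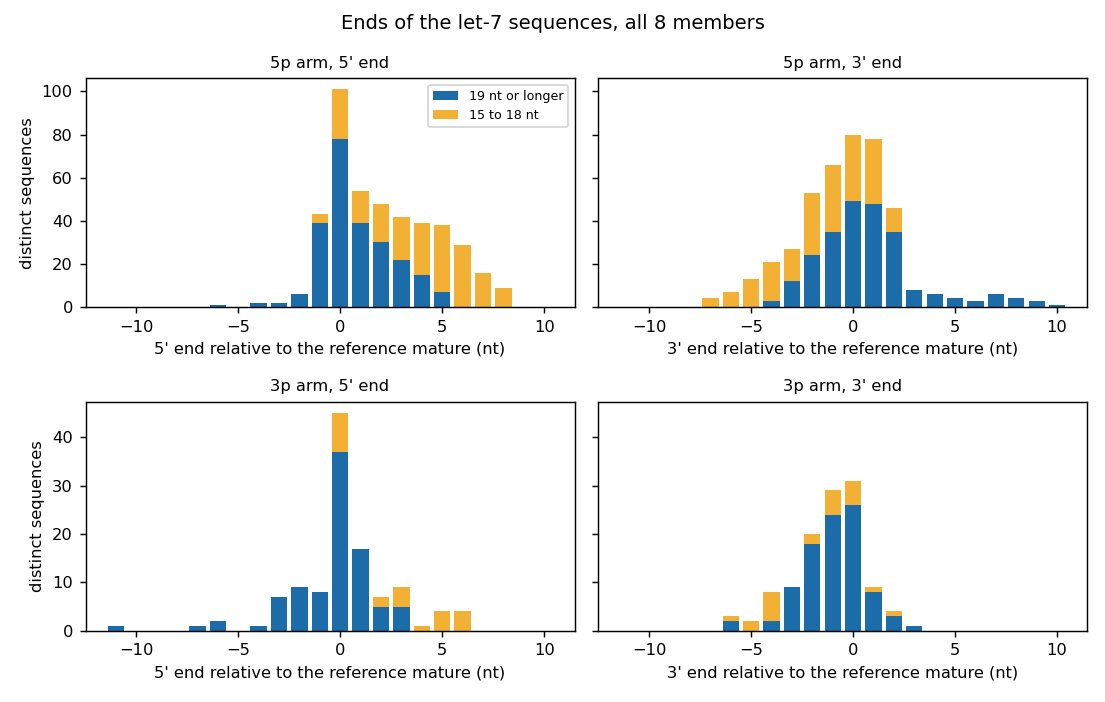
Bars give the number of distinct sequences of all 8 members (vertical axes, from 0) by the position of their 5′ end (left) and 3′ end (right) relative to the reference mature miRNA in nt, for the 5p arm above and the 3p arm below, split by length. The 5p starts fall off from 101 at 0 to 9 at 8 bases later, and the starts from 6 bases on are all 15 to 18 nt.

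The 3p arm, usually the passenger strand in this family, held 116 sequences within a hairpin. Of these, 45 began at the reference base (38.8%, interval 29.9 to 48.3), 29 before it and 42 after it. At the 3′ end, 31 matched the reference (26.7%, interval 18.9 to 35.7), 71 were shorter and 14 longer. Shorter 3′ ends thus made up 61.2% on the 3p arm and 44.4% on the 5p arm. Other hairpins had 28% of 4165 3p sequences at the reference start. let-7i had 7 of 11 at the reference start and let-7b 3 of 3. let-7e had 9 of 20 before it, and its longest 3p sequence, of 33 nt, began 11 bases early within the loop.

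let-7g was the 1 member whose most frequent 3p start was not the reference. Of its 11 3p sequences, 2 began at the reference and 6 began 1 base later, as in cTGTACAGgccactgccttgcc. With that start the first base is C, as in the reference 3p sequences of the other members, and bases 2 to 8 read TGTACAG, the same as in let-7a-2-3p. The reference let-7g-3p has the seed CUGUACA. The numbers are small, and the interval for the reference start in let-7g was 2.28 to 51.8%.

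Loop sequences were found in all 11 hairpins, 57 in all, and each of the 57 mapped to 1 position. Of these, 42 began at the base after the 5p mature miRNA and 18 ended at the base before the 3p mature miRNA. Both ends coincided in 9, so that the whole loop was present as 1 sequence in 9 of the 11 hairpins. let-7d and let-7g were the exceptions. The longest loop sequence of let-7g instead ran 1 base into the reference 3p, up to the 3p start that most of its 3p sequences used. Whole loops of up to 29 nt are shown because they fill exactly the space between both arms:
let-7a-1 loop: ttagggtcacacccaccactgggagataa
let-7a-2 loop: tagagttacatcaagggagataa
let-7c-1 loop: tagagttacaccctgggagttaa
let-7c-2 loop: ttgggctctgccccgctctgcggtaa
let-7e loop: gaggaagacacccgaggagatca
let-7f-2 loop: ttagggtcataccccatcttggagataa
The other whole loops had 32 nt (let-7b) and 34 nt (let-7f-1 and let-7i). let-7a-1 had 11 loop sequences and let-7c-1 10, while let-7i had 1. In let-7a-1 the loop sequences that began at the base after the 5p arm formed a run of every length from 22 to 30 nt. Loop sequences had a median of 24 nt, against 19 nt on the 5p arm and 21 nt on the 3p arm. Of the 37 let-7 sequences of 27 nt or more, 17 were loops and 16 were extended 5p sequences.

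The let-7 loops are 23 to 34 nt long, and the median loop of the other 237 hairpins was 16 nt. Sequences shorter than 15 nt were not in the list, so many short loops could not have been listed whole. Among the 9 other hairpins with loops of at least 23 nt, 10 of 336 sense sequences were loops (2.98%, interval 1.44 to 5.41). Their median loop was 35 nt, longer than any let-7 loop. The let-7 share of 8.85% pools members that ranged from 1 of 57 in let-7i (1.75%) and 2 of 81 in let-7d (2.47%) to 8 of 59 in let-7b (13.6%). Many of the let-7 loop sequences are nested forms with 1 start, and the difference from other hairpins was not tested.

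Sequences on the 5′ side of the 5p arm numbered 34, from 8 hairpins. Of these, 32 ended at the base just before the 5p mature miRNA, 1 ended 1 base earlier and 1 ended 2 bases earlier. Such neighbours of the mature miRNA are known as miRNA-offset RNAs. A 21 nt form of let-7a-2 also ended at the base just before the 5p mature miRNA and is not shown. The 21 nt forms of 5 other members are shown because they end at the same junction although they share little sequence:
let-7b: cagaacacggacaccgcaggg
let-7c-1: ggaagctgtgtgcatccgggt
let-7d: gaataaaatgggttcctagga
let-7f-2: agacactggtgctctgtggga
let-7g: ctcttttgcctgattccaggc
let-7b and let-7c-1 had 7 each and let-7d 6. In let-7b they ran over every length from 17 to 22 nt and then 25 nt, all with the same 3′ end. let-7e, let-7f-1 and let-7i had none. Only 6 bases of the let-7b and let-7g sequences lie on the RefSeq hairpin, and the bases beyond its end were not compared with a genome. On the 3′ side of the 3p arm there were 6 sequences of 20 to 24 nt, 1 each from 6 hairpins, and those of let-7i and let-7b had only 3 and 4 bases on the hairpin. With at least 10 bases required there, 25 of the 40 flanking sequences of both sides were left. Without that requirement, 2 of the 6 sequences on the 3′ side began at the base after the 3p mature miRNA. Another 3 began 1 base before that, among them those of let-7b and let-7i, and 1 began 1 base after it. Other hairpins had 3.86% of their sense sequences before the 5p arm and 0.733% after the 3p arm, against 5.28% and 0.932% in let-7.

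Sequences antisense to a hairpin numbered 26, of which 14 were named for let-7b, 8 for let-7a, 2 for let-7f and 1 each for let-7g and let-7i. In let-7b they made up 14 of 73 sequences (19.2%, interval 10.9 to 30.1), while let-7c had 0 of 111, which allows a share of up to 3.27%. Antisense sequences made up 0.908% (interval 0.743 to 1.1) of the 11568 sequences of the 284 other hairpins with a RefSeq entry. Of the 26, 19 lay opposite the 3p arm, and these also resembled sense let-7 sequences. On a let-7 hairpin in the sense direction, 18 of them had 1 mismatch and 1 had 2 mismatches. An example named for let-7b is shown above the let-7a form it resembles, in which capitals mark bases 2 to 8:
antisense to let-7b-3p: aggcagtaggttgtatagtt
let-7a-5p, 2 bases late: aGGTAGTAggttgtatagtttt
The 2 arms of a hairpin pair with each other, so the strand opposite the 3p arm resembles the 5p arm. The list alone does not tell an antisense RNA from a 5p sequence with 1 changed base.

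The 5 sequences opposite the 5p arm were different. All were named for let-7a, measured 17 to 21 nt and had at least 3 mismatches to any let-7 hairpin in the sense direction. All 5 ended opposite the first base of let-7a-5p and differed only in where they began:
actatacaacctactacctca
ctatacaacctactacctca
tatacaacctactacctca
atacaacctactacctca
tacaacctactacctca
The 3 longest mapped to 2 positions, the number of let-7a hairpins, and the other 2 to 4 positions. The last antisense sequences were 1 of 15 nt opposite the let-7g loop and 1 of 27 nt that ran past the 5′ end of the let-7i hairpin.

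let-7 sequences ranged from 15 to 35 nt with a median of 20 nt. Although 19 to 33 nt had been selected, 244 of the 671 measured 15 to 18 nt (36.4%) and 4 were longer than 33 nt. The miRNA range of 19 to 23 nt held 327 (48.7%, interval 44.9 to 52.6), and 100 measured 24 nt or more (14.9%). The most frequent length over all members was 18 nt, with 79 sequences. let-7a had 64 of 123 in the miRNA range and let-7b 29 of 73. The share of 15 to 18 nt was 47.9% in let-7b, antisense sequences included, and 26.1% in let-7c. Some short sequences on both let-7c hairpins were named let-7a and do not count in the let-7c share. Sequences of 24 nt or more made up 23.4% in let-7g and 6.17% in let-7e. Other hairpins had 27.8% of 16887 sequences at 15 to 18 nt and 52.4% at 19 to 23 nt. Without the 4 names with most sequences, they had 30.2% and 56.3%.

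**Figure D4:**
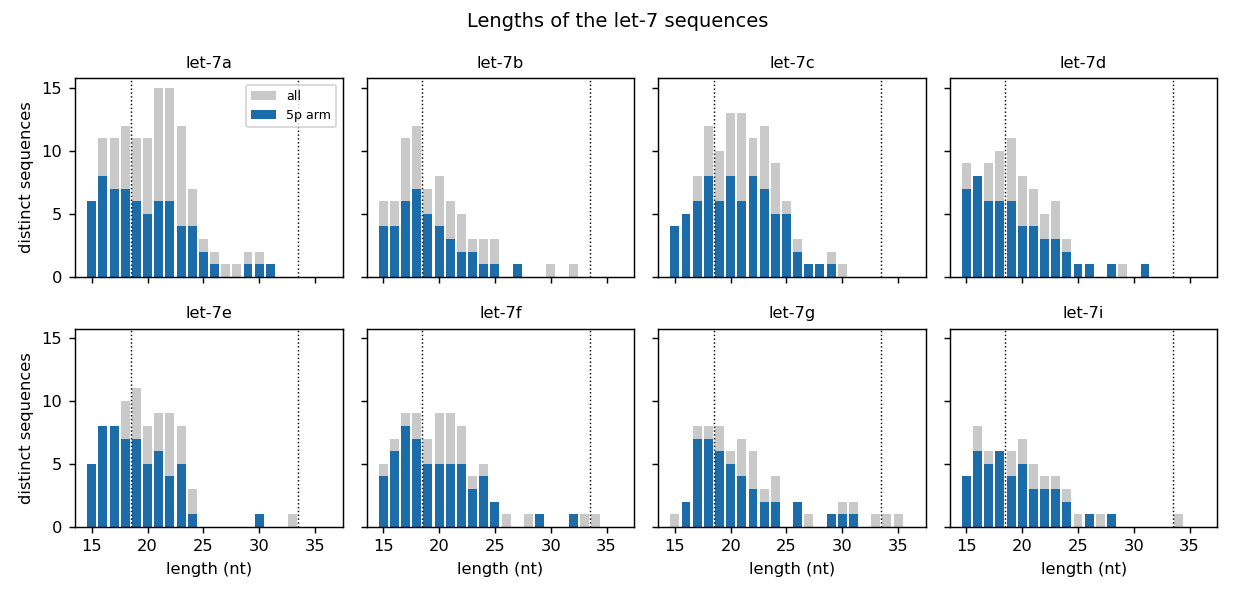
Each panel gives the number of distinct sequences of 1 member (vertical axis, from 0) by length in nt, with all sequences in grey and those on the 5p arm in blue, and dotted lines at the ends of the selected range of 19 to 33 nt. Every member has sequences below 19 nt, and the few beyond 33 nt belong to let-7f, let-7g and let-7i.

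The map number is the authors' count of positions to which a sequence mapped. It was 1 for 473 let-7 sequences (70.5%, interval 66.9 to 73.9), 2 for 120, 3 for 26 and higher for 52, with a maximum of 16. Over the other hairpins 73.5% mapped to 1 position, and 77.7% without the 4 names with most sequences. The map number of let-7 sequences fell with length. At 15 to 18 nt 42.2% mapped to 1 position, at 19 to 23 nt 82.9% and of longer ones 99%. let-7b had 89% at 1 position, let-7e 86.4%, let-7g 84.4% and let-7d 81.5%, each with 1 hairpin. let-7i, also with 1 hairpin, had 75.9%. The members with 2 hairpins had 67.6% (let-7c), 57.5% (let-7f) and 43.1% (let-7a). The map number was compared with the number of let-7 hairpins that hold the sequence on either strand. For sequences of 19 nt or more within a hairpin, both were equal in 384 of 386 (99.5%). At 15 to 18 nt this was so for 129 of 217 (59.4%), and in the other 88 the map number was higher. Both exceptions at 19 nt or more were 19 nt long.

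**Figure D5:**
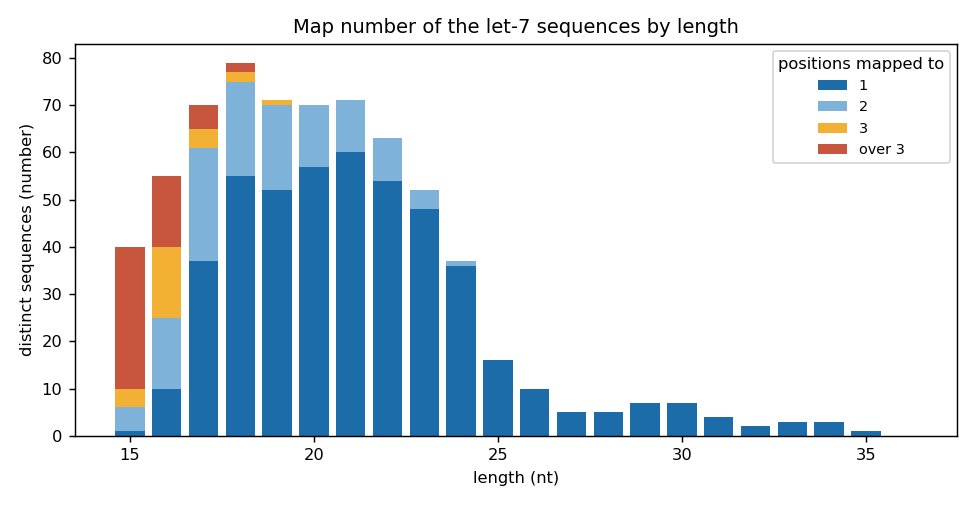
Stacked bars give the number of let-7 sequences (vertical axis, from 0) of each length in nt, coloured by the number of positions to which they mapped. Map numbers over 3 are confined to 15 to 18 nt in these sequences, and from 25 nt on every bar is a single colour, for 1 position.

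A sequence held by several hairpins was listed under 1 name only, which bears on the numbers per member. Of the 603 sequences within a hairpin, 30 lay on hairpins of more than 1 member, and 26 of these were named let-7a. Of the 30, 18 were 3p sequences common to let-7a-1 and let-7c-2, and all 18 were named let-7a, so let-7a's 29 3p sequences include 18 that may equally have come from let-7c-2. The other 12 lay on the 5p arm. Between copies, 33 sequences were common to both let-7a hairpins and to no other member, and all 33 were named for copy 1. The 30 common to the 2 let-7f hairpins alone were also named for copy 1. The 32 common to the 2 let-7c hairpins alone were all named for copy 2. Further short 5p sequences on both let-7c hairpins also lay on let-7a hairpins and were named let-7a. The totals of copies are therefore not comparable. The counts of sequences held by 1 hairpin alone, given above, also depend on how much sequence a hairpin shares with others.

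mir-98, which is placed in the let-7 family by its 5p seed but not by its name, had 32 sequences, fewer than any let-7 member. Its mature 5p sequence is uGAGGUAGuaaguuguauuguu, with the seed shared by all 8 members. Of its 32 sequences, 24 lay on the 5p arm (75%), 6 on the 3p arm and 1 in the loop, and 7 of the 24 began at the reference base (29.2%, interval 12.6 to 51.1). mir-202, a testis miRNA whose 3p seed GAGGUAU differs from that of let-7 at 1 base, had 101 sequences, 50 of them on the 3p arm and none in the loop. Among genomic neighbours of let-7 hairpins, mir-99a had 64 sequences, mir-99b 55, mir-100 40, mir-125a 85, mir-125b-1 41 and mir-125b-2 102. Of these, mir-99a, mir-100, mir-125a and mir-125b-1 could be placed, and their loops held 0 of 64, 0 of 40, 0 of 85 and 0 of 40 sense sequences.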

How the data were processed

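The authors deposited 1 table of distinct sequences for the whole series. Per the file headers, it gives for each sequence the number of positions mapped (the map number, another kind of count with no read number behind it) and an annotation. The aligner, build and order of annotations are not given in the sources used here. None of the 3 columns was tied to a library, and 0 columns belonged to another series.

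The members and lists were chosen with earlier results of these data known. Sequences were placed on RefSeq hairpins (GRCm38.p6) by exact match on either strand, or past an end with at least 3 bases on the hairpin, with Python 3.11.15 (SciPy 1.17.1). All 1000 simulated sequences each within, opposite and past the 11 hairpins were called correctly. The overlaps simulated past an end were longer than the least of 3 bases allowed, so the shortest overlaps were not checked. All 1000 random sequences passed, but they were scored only for a match within a hairpin on either strand. False calls past an end were not counted. Every member was named, and alternative 5′ ends with at least 5 sequences were to be printed. Of 37 such ends, those up to 1 base late were printed for the 5p arm, with 1 on the 3p arm and 1 for comparison. Loop, flank, extended, antisense and let-7j sequences were chosen after their values were seen. mir-99b and mir-125b-2 had no matching entry.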

Additional observations from a re-analysis of the deposited data

Results flagged for a closer look

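A first group of sequences lies within let-7 hairpins but does not carry a let-7 name. There were 12, of which 6 had no annotation and 6 had the name of a repeat. They measured 15 or 16 nt and mapped to 6 to 37 positions, 11 of them were sense, and 7 matched the let-7g hairpin. With that many positions, none can be assigned to a let-7 hairpin. None of these sequences entered the counts of the members.

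A second group of 15 sequences had no annotation, mapped to 1 position and lay on the mature miRNA of let-7j (Mir7j, chr3:140028249-140028370, plus strand, GRCm38.p6), a hairpin to which no sequence of the list was annotated. They measured 17 to 24 nt. Of these, 8 began at the reference 5′ end, and the full mature sequence of 24 nt was among them, as tGAGGTATtagtttgtgctgttat. Its bases 2 to 8, in capitals, are those of miR-202-3p and differ from let-7 at the last of them. The whole let-7j hairpin held 25 sequences, 9 of them under repeat names, all sense. let-7k (Mir7k, chr5:147283189-147283298, minus strand) held 2. Of these, 1 of 18 nt mapped to 1 position. The other, of 15 nt and under a repeat name, mapped to 27 positions, also lies on let-7e and belongs to the first group as well.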

How the results depend on the processing

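Of 23 values recomputed under another setting, 14 stayed within their interval (counts within 1.5 times) and 9 did not. With only the labelled 19 to 33 nt, the number of let-7 sequences was 423, the share of 19 to 23 nt 77.3%, the 5p share of sequences placed within a hairpin 63.1% (71.3% over all lengths), the reference 5′ end on the 5p arm 32.4% and the share of map number 1 86.5%. With map number 1 alone, 57.3% measured 19 to 23 nt. Allowing up to 1 mismatch placed 92.5% on the sense strand, and up to 2 mismatches 92.7%, through the sequences called antisense above. Requiring 10 bases on the hairpin, an alternative added after seeing the data, left 25 of the 40 flanking sequences.

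No paired analysis was possible because each group had 1 library and no sequence was tied to a library. Leaving out a library was not done, for the same lack of a link to libraries. Depth was unknown, and the list gives neither levels nor absence from a library.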
